A study of Drosophila melanogaster with 6 samples.

Results

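Asymmetric cell division gives the 2 daughters of a progenitor different fates. In Drosophila neuroblasts and embryonic muscle and heart progenitors, a protein complex of Bazooka, Par-6 and atypical protein kinase C marks one side of the cell cortex, the adaptors Inscuteable and Pins align the mitotic spindle with it, and fate determinants collect on the opposite side and enter a single daughter. The determinant Numb blocks Notch signalling in the daughter that inherits it, so the siblings read Notch differently. The genes described here are 10 of this machinery, chosen by name: baz, par-6 and aPKC of the Par complex, the polarity kinase gene par-1, the spindle adaptor genes insc and pins, the determinant genes numb and brat, the adaptor gene mira, and spdo, whose product Sanpodo acts with Notch. Of the 10 genes, 9 were matched by symbol to 13 probe sets, out of 10844 genes named by the platform's annotation and 13966 probe sets tested. No probe set carried the symbol spdo alone, and spdo was not analysed here. Where a gene had several probe sets, the brightest over all arrays was used and the others are given beside it.

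The samples were RNA of cells sorted by flow cytometry from embryos at late stage 11 to early stage 12 that carried TinD-GFP insertions. GFP-positive cells (3 arrays) are, per the labels, Tinman-expressing cardiac mesoderm, and GFP-negative cells (3 arrays) are the remaining cells of embryos of the same genotype. Signals are log2 values per probe set from Affymetrix arrays, and every difference is GFP-positive minus GFP-negative on that scale. The labels do not say that replicates came from separate embryo collections, so p-values measure the spread between these arrays, which may be technical. In sorted populations a larger share of cells of one type and more RNA per cell cannot be told apart.

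Arrays correlated at r = 0.917 to 0.945 over all probe sets, with a mean of 0.932 within and 0.930 between groups. The added bacterial hybridisation controls averaged 8.06 on GFP-negative replicate 1 and 8.88 to 9.26 on the other 5 arrays. Values without that array are therefore given for numb, par-1, brat and Pp4-19C, the genes whose calls are described in full below. None of 11 cardiac marker genes measured passed the test, and their median difference of 0.03 pooled opposite directions. Without overlap between groups, tup (0.45) and eve (0.34) were higher, and pnr (-0.29), Doc1 (-0.21), Doc2 (-0.42) and Doc3 (-0.36) lower. Of 8 somatic muscle markers 5 rose (median 0.93), and tin, the gene behind the reporter, was not analysed here. Background was set at 2.44, the highest mean among 23 controls for genes of bacteria, yeast and mouse, and all 9 genes lay above it in both groups. The cardiac marker lbe lay below background in both groups, and Hand (difference 1.39) in GFP-negative cells (mean 1.10).

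The polarity kinase gene par-1 and the determinant gene numb rose in GFP-positive cells, and no member fell. The other 7 genes did not pass the test. Differences were small, 1.47-fold for par-1 and 1.27-fold for numb. Neither call held in any fit that left out a single array, and the other probe sets of par-1 showed no such difference. The probe set called for par-1 was the brightest of its gene by GFP-positive mean but not by GFP-negative mean. Across all genes 268 of 10844, or 2.47%, were called, 1.5% as higher and 0.968% as lower, by limma with a prior variance that follows the level and Benjamini-Hochberg adjustment over all probe sets at a threshold of 0.05. That fit was chosen with earlier results of these data known, after a fit with a single prior variance had called no probe set. The share called rose with signal level. It was 1.48% of probe sets at means of 4 to 6, where par-1 lies. At 6 to 8 it was 7.87%, and above 8, where numb lies, it was 15.3%. The median difference was 0.06 over the 9 genes and -0.02 over all genes, with 5 of the 9 above 0, against 47.3% of all genes.

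**Figure D1:**
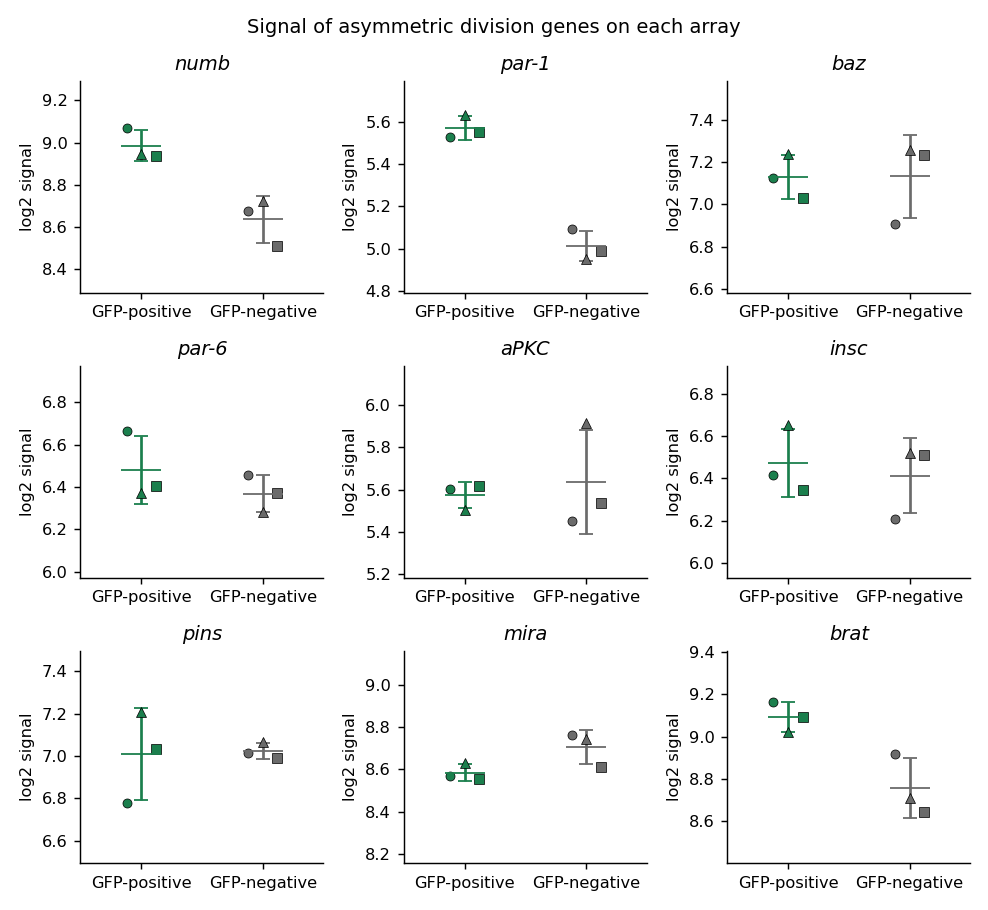
Log2 signal of the 9 measured genes on each of 6 arrays, GFP-positive left and GFP-negative right. Circles, triangles and squares are replicates 1, 2 and 3, bars show mean and SD (n = 3), and every panel spans 1 log2 unit. The groups separate for numb, par-1 and brat, and overlap for the other 6 genes.

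The kinase Par-1 works on the cortex opposite the Par complex, where it phosphorylates Bazooka and keeps it away. Its brightest probe set read 5.53, 5.63 and 5.55 in GFP-positive cells, against 5.09, 4.95 and 4.99 in GFP-negative cells. The groups stood clear of each other, with means of 5.57 ± 0.06 and 5.01 ± 0.07 (SD, n = 3 each). The difference was 0.56 ± 0.12 (SE), and with limma the adjusted p was 0.0498, which placed this probe set 340th by p among the 340 called, 2.43% of all probe sets.

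The other probe sets of par-1 did not show this difference. The first of them read 5.21, 5.30 and 5.01 in GFP-positive cells, against 4.99, 5.44 and 5.30 in GFP-negative cells, a difference of -0.06 ± 0.16 (SE, limma adjusted p = 0.913). The second and dimmest differed by 0.11 ± 0.24 (SE, limma adjusted p = 0.897), with means of 4.01 for GFP-positive and 3.90 for GFP-negative arrays. In both the groups overlapped. Within arrays, the gap between the brightest probe set and the first of the others was 0.39 ± 0.13 on the GFP-positive and -0.23 ± 0.30 on the GFP-negative arrays (SD, n = 3 each), and the 2 sets of gaps did not overlap. An exact 2-sided permutation test of that shift gave p = 0.10, the smallest that 3 against 3 arrays allow, and the same held for the dimmest probe set. The mean of the 3 probe sets differed by 0.20 ± 0.15 (SE, limma adjusted p = 0.613). The rise of par-1 thus rests on 1 of its 3 probe sets. By mean, that probe set was the brightest on the GFP-positive arrays (5.57 against 5.18 for the first of the others). On the GFP-negative arrays the first of the others was brighter (5.24 against 5.01). The choice of probe set by its mean over all arrays thus drew on the group where it was high. Which transcripts or exons the probe sets read is not given in the sources used here.

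Numb is the membrane-associated determinant that is inherited by a single daughter. Its only probe set read 9.07, 8.95 and 8.94 in GFP-positive cells, against 8.68, 8.72 and 8.51 in GFP-negative cells. Every GFP-positive array lay above every GFP-negative array, and the means were 8.98 ± 0.07 and 8.64 ± 0.11 (SD, n = 3 each). The rise was 0.35 ± 0.07 (SE, limma adjusted p = 0.042), or 1.27-fold with a 95% confidence interval of 1.14 to 1.42.

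Brat, a translational repressor that the adaptor Miranda carries into one daughter of a neuroblast, had a difference close in size to that of numb. Its values were 9.16, 9.02 and 9.09 in GFP-positive cells, against 8.92, 8.71 and 8.64 in GFP-negative cells. The groups did not overlap, but the difference of 0.34 ± 0.08 (SE) missed the threshold (limma adjusted p = 0.065). GFP-negative replicate 1 was the highest of its group. Without it the difference was 0.42 (adjusted p = 0.027), and brat also passed with a block on replicate number (0.025) and without dim probe sets (0.023). These were the only 3 of 16 alternative settings in which brat passed. Of the 6 fits without 1 array it passed in 1, and the limma adjusted p reached 0.207 in the others. Groups without overlap were found in 3 of the 9 genes, numb, par-1 and brat, all higher, and in 20.2% of all genes, 9.28% higher and 11% lower.

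The calls of numb and par-1 each rested on all 6 arrays. The adjusted p of numb was 0.064 to 0.133 and that of par-1 0.101 to 0.168 over the 6 fits that each left out 1 array, so either call ended whichever array was removed. The differences stayed about as large in these fits, 0.29 to 0.39 for numb and 0.53 to 0.60 for par-1. Without GFP-negative replicate 1 the differences were 0.37 for numb (adjusted p = 0.085) and 0.60 for par-1 (0.101). When all probe sets shared 1 prior variance, limma called 0 of 13966, or 0%. In that fit 10.6% of probe sets and 3 of the 9 genes (par-1, numb and brat) had an unadjusted p under 0.05, and the adjusted p was 0.252 for par-1, 0.417 for numb and 0.454 for brat. With a block on replicate number the adjusted p of par-1 was 0.079 and that of numb 0.025.

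**Figure D2:**
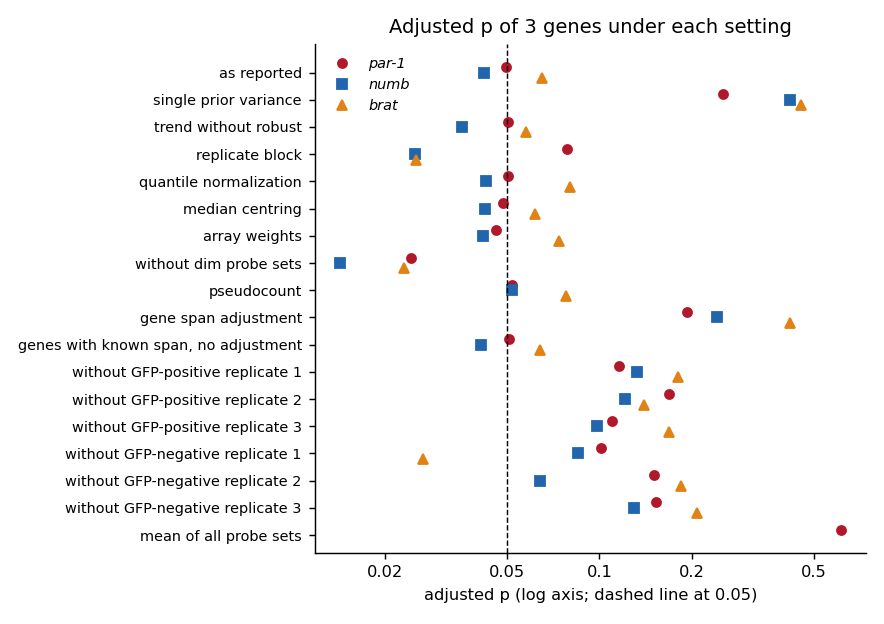
Adjusted p (log axis) of par-1 (circles), numb (squares) and brat (triangles) under each setting, with the threshold of 0.05 dashed; the mean of all probe sets applies to par-1 alone, since numb and brat have 1 probe set. Points of all 3 genes lie right of the line with a single prior variance, with the pseudocount, after the span adjustment and in all but 1 point of the fits without 1 array, brat without GFP-negative replicate 1.

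The Par complex genes showed no difference beyond the spread between arrays. Bazooka, the Par-3 scaffold that recruits the complex, read 7.13, 7.24 and 7.03 in GFP-positive cells, against 6.91, 7.26 and 7.23 in GFP-negative cells. The difference of baz was -0.003 ± 0.11 (SE, limma adjusted p = 0.995), and its 95% interval allows 0.842-fold to 1.18-fold. The adaptor gene par-6, whose product ties the kinase to its regulators, read 6.66, 6.37 and 6.41 in GFP-positive cells, against 6.46, 6.28 and 6.37 in GFP-negative cells. The groups overlapped, with a difference of 0.11 ± 0.10 (SE, adjusted p = 0.705) and an interval of 0.917-fold to 1.27-fold. The kinase gene aPKC, whose product phosphorylates Numb and Miranda and displaces them from its side of the cortex, read 5.60, 5.50 and 5.62 in GFP-positive cells, against 5.45, 5.91 and 5.54 in GFP-negative cells. Its difference was -0.06 ± 0.14 (SE, adjusted p = 0.906), with an interval of 0.769-fold to 1.20-fold. GFP-negative replicate 2 was the highest array, and without it the difference was 0.08.

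Both spindle adaptors also overlapped between the groups. Inscuteable links Bazooka to Pins, and insc read 6.42, 6.65 and 6.34 in GFP-positive cells, against 6.21, 6.52 and 6.51 in GFP-negative cells. The lowest array was GFP-negative replicate 1, as for baz, and within each group the arrays ranked insc and baz in the same order. The difference of insc was 0.06 ± 0.12 (SE, limma adjusted p = 0.888), with an interval of 0.860-fold to 1.26-fold, and it was -0.04 without GFP-negative replicate 1. Pins, which binds the G protein subunit Galphai and the spindle protein Mud, read 6.78, 7.21 and 7.03 in GFP-positive cells, against 7.02, 7.07 and 6.99 in GFP-negative cells. GFP-positive arrays lay on both sides of the GFP-negative ones. The difference was -0.015 ± 0.11 (SE, adjusted p = 0.974), and the other probe set of pins gave -0.05 ± 0.13 (SE, adjusted p = 0.926). A further probe set assigned to pins and another gene together was not used.

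Miranda, the adaptor that carries Brat, the homeodomain factor Prospero and the RNA-binding protein Staufen, had the lowest difference of the 9 genes. The brightest probe set of mira read 8.57, 8.63 and 8.56 in GFP-positive cells, against 8.76, 8.74 and 8.61 in GFP-negative cells. The groups overlapped by 1 array each, and the difference was -0.12 ± 0.06 (SE, limma adjusted p = 0.410). The other, much dimmer probe set read 2.07, 3.13 and 2.78 in GFP-positive cells, against 4.08, 4.11 and 3.81 in GFP-negative cells. There the groups did not overlap, with a difference of -1.34 ± 0.40 (SE) that did not pass (adjusted p = 0.139). Each GFP-positive value lay below the brightest control on its own array (2.58, 3.43 and 3.23), while each GFP-negative value lay above it (3.55, 2.83 and 3.41). The dim probe set was thus not above the brightest control on any GFP-positive array, although its GFP-positive mean of 2.66 lay above the background of 2.44. The size of its difference is not firm. The mean of the 2 probe sets, -0.73 ± 0.15 (SE, adjusted p = 0.045), rests on that dim probe set and is not counted as a call.

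**Figure D3:**
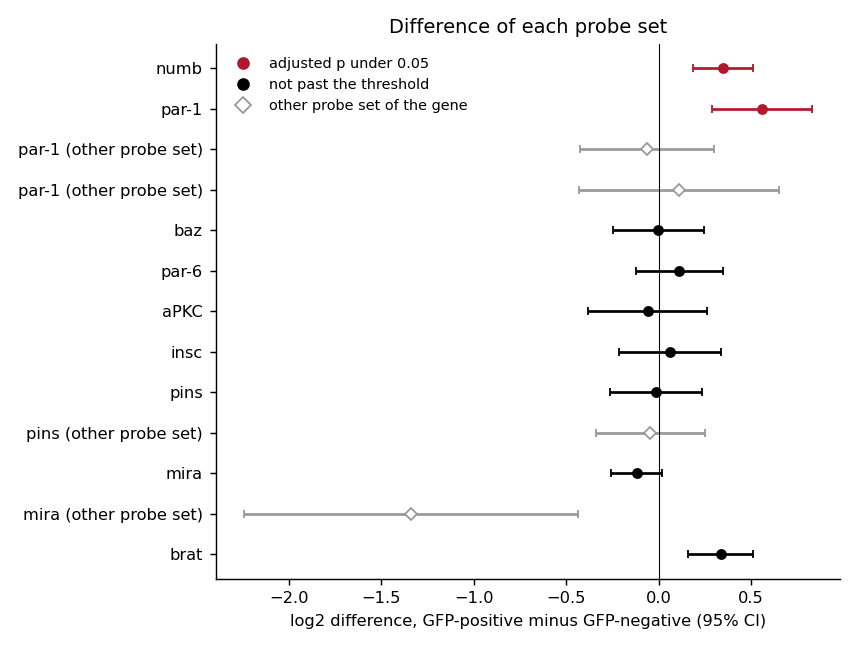
Log2 difference with 95% confidence interval for the 13 probe sets, red where the adjusted p is under 0.05, black where it is not and open grey diamonds for the 4 probe sets that are not the brightest of their gene. The brightest probe set of par-1 lies at 0.56 while its others lie at -0.06 and 0.11, and the dim probe set of mira at -1.34 lies far below its brightest at -0.12.

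Differences also moved with the annotated length of a gene across the whole array. Over 5169 genes with a mean level above 4, Spearman's rho across genes between gene span and difference was 0.43, and genes are not independent replicates. In the decile of genes with the longest spans the median difference was 0.24 and 11.6% of genes were called as higher, while in the shortest decile the median was -0.17 and 0.581% were. The members numb, par-1, brat, baz and aPKC all fall in the longest decile. There par-1 stood above 87.8% of genes of its decile, numb above 65.8% and brat above 64.6%, but baz above 19.7% and aPKC above 15.5%. The long genes of this machinery thus lay on both sides of the median of their decile. The gene insc falls in the ninth decile, and par-6, pins and mira fall in the sixth, where the median was -0.05 and they stood above 80.9%, 57.6% and 37.7% of genes. After each array was adjusted for span, numb differed by 0.20 (limma adjusted p = 0.241), par-1 by 0.41 (0.193) and brat by 0.18 (0.418), and none passed. Over the same genes without the adjustment, numb passed (0.041) and par-1 narrowly did not (0.0506). Whether gene span bears on the difference of any single member was not tested.

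**Figure D4:**
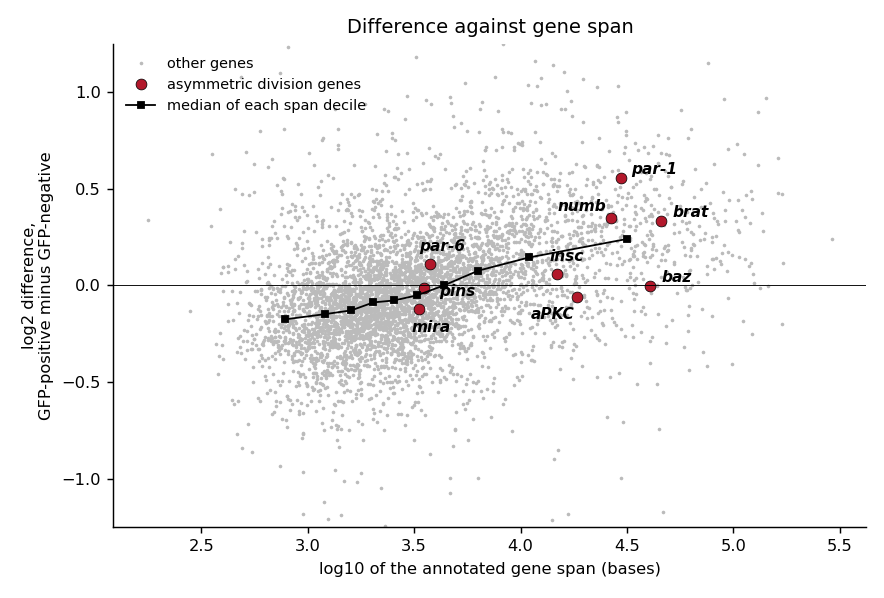
Log2 difference against the log10 of the annotated gene span for 5169 genes with a mean level above 4 (grey; genes beyond the axis limits are not drawn), with the median of each span decile (black squares). Of the 5 members in the longest decile, par-1, numb and brat lie above the decile median of 0.24, while baz and aPKC lie below it.

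Among other genes of the machinery, listed by role, 22 of 33 were measured and the other 11 were not analysed here. None rose, Pp4-19C fell and 21 did not pass, where 2.47% of all genes were called. The median difference was -0.004, 11 genes were above 0 and 11 below, and the groups did not overlap in 10, of which 6 were higher and 4 lower, where 20.2% of all genes did not overlap, 9.28% higher and 11% lower. At the level of Pp4-19C, means of 6 to 8, 7.87% of probe sets were called. Pp4-19C encodes the catalytic subunit of protein phosphatase 4, which is needed to localise Miranda in neuroblasts. It read 6.59, 6.59 and 6.75 in GFP-positive cells, against 7.04, 7.01 and 7.05 in GFP-negative cells. It fell by 0.39 ± 0.08 (SE, limma adjusted p = 0.038), but the adjusted p was 0.051 to 0.146 over the fits without 1 array (0.110 without GFP-negative replicate 1), 0.357 when probe sets shared 1 prior variance and 0.103 after the span adjustment. Its difference stayed about as large, -0.45 to -0.36 without 1 array and -0.35 after the span adjustment. The regulatory subunit of that phosphatase encoded by flfl, falafel, differed by 0.003 ± 0.12 (SE).

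Of 5 cortical polarity partners 4 had a difference above 0 and none passed. The scaffold gene scrib had 6.64, 6.82 and 6.58 in GFP-positive cells, against 6.24, 6.29 and 6.34 in GFP-negative cells, a difference of 0.39 ± 0.09 (SE, limma adjusted p = 0.069) without overlap. For cno, which encodes the junction scaffold Canoe, the difference was 0.31 ± 0.08 (SE, adjusted p = 0.103). The tumour suppressor gene l(2)gl, whose product opposes aPKC, differed by -0.10 ± 0.10 (SE, adjusted p = 0.753).

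Of 5 spindle orientation partners none passed. The gene of the Pins ligand Galphai read 8.66, 8.66 and 8.69 in GFP-positive cells, against 8.74, 8.88 and 8.81 in GFP-negative cells, a difference of -0.14 ± 0.06 (SE, limma adjusted p = 0.280) without overlap. Of the same list, loco was higher without overlap, by 0.18 ± 0.08 (SE, limma adjusted p = 0.311). The spindle gene mud differed by 0.02 ± 0.14 (SE, adjusted p = 0.975). The Miranda cargo genes pros and stau differed by 0.14 ± 0.08 (adjusted p = 0.480) and 0.06 ± 0.11 (SE, adjusted p = 0.870), and pon, which encodes the Partner of Numb, by -0.12 ± 0.12 (adjusted p = 0.740). The groups overlapped in all 4 of mud, pros, stau and pon. Of the 5 measured genes on the route from Numb to Notch, none passed. The ubiquitin ligase gene neur, which acts on Notch ligands, differed by 0.24 ± 0.08 (SE, limma adjusted p = 0.178), and AP-2alpha, the adaptin that binds Numb, by -0.01 ± 0.08 (adjusted p = 0.975). Without overlap, neur and Nak (0.215) were higher and AP-2sigma (-0.22) was lower.

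**Figure D5:**
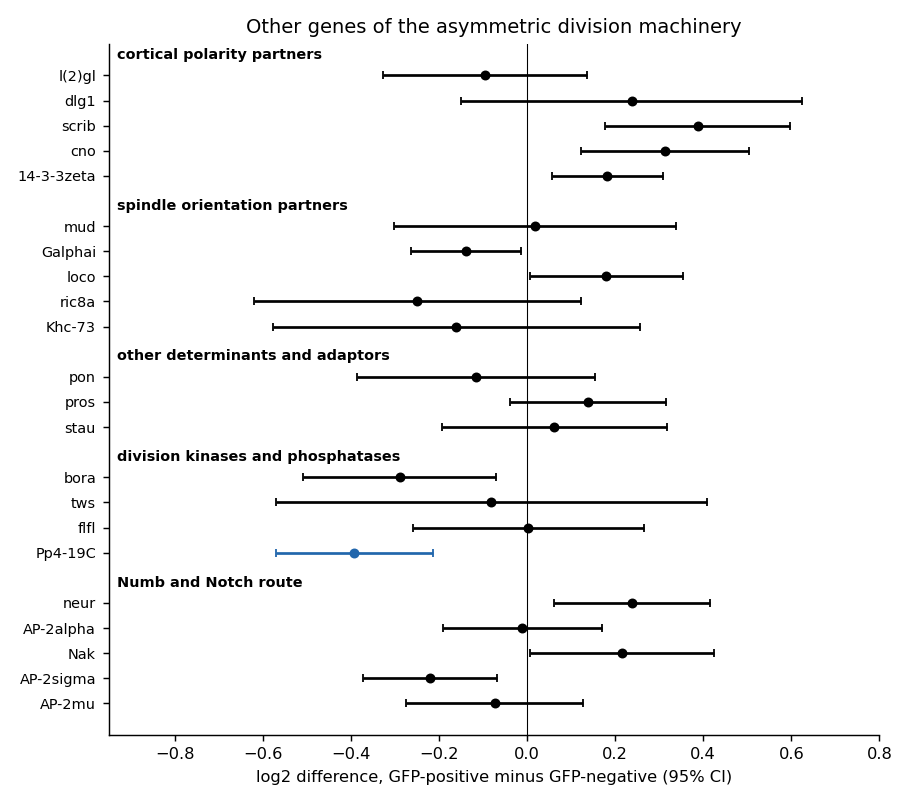
Log2 difference with 95% confidence interval for the 22 other measured genes of the asymmetric division machinery, grouped by role. Pp4-19C (blue, -0.39) has an adjusted p under 0.05. Several other intervals also leave out 0, as for scrib at 0.39, but are not adjusted over all probe sets, and those genes did not pass.

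The same genes work in neuroblasts, which belong to the GFP-negative cells if the sort followed the labels. Neuroblast markers other than the genes above gave no common direction. Of 9 measured from a list of 10, 0 passed, 4 lay above 0 and 5 below, with a median of -0.01. Summed over the list, linear signals were 1280 to 1321 on GFP-positive arrays and 1266 to 1311 on GFP-negative arrays. The neuroblast repressor gene dpn read 6.30, 6.42 and 6.30 in GFP-positive cells, against 6.62, 6.71 and 6.55 in GFP-negative cells, lower without overlap but not past the threshold (difference -0.29 ± 0.09, SE, limma adjusted p = 0.138). The neural precursor gene ase ran the other way, with a difference of 0.20 ± 0.09 (SE, adjusted p = 0.327). Of 6 sensory precursor markers 0 passed (median 0.08), and summed signals were 430 to 481 on GFP-positive arrays and 387 to 447 on GFP-negative arrays. Neuron markers had a median of 0.33 over 6 genes and 0 passed, and elav, the pan-neuronal RNA-binding protein gene, differed by 0.21 ± 0.19 (SE, adjusted p = 0.709). That median is not firm. Among these genes nSyb (difference 1.06) lay below background in both groups, and futsch (-0.20) and brp (0.16) lay close to it. Of the 6 genes 5 lay above 0. Among those above background, fne was higher without overlap (difference 0.46 ± 0.18, SE, limma adjusted p = 0.279).

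Somatic muscle markers were higher in GFP-positive cells. Their summed linear signal was 674 to 739 on GFP-positive arrays and 363 to 392 on GFP-negative arrays over 8 genes, of which 5 rose. Among them lmd, the factor of fusion-competent myoblasts, rose by 1.05 ± 0.08 (SE, limma adjusted p = 6.7e-04). Epithelial markers, of cells whose apical side also holds the Par complex, had a median of 0.20 over 7 genes, and 0 passed. Their summed signal was 1088 to 1170 on GFP-positive arrays and 912 to 1036 on GFP-negative arrays. The brightest gene, Nrg (means 8.97 and 8.80), weighs most in that sum. Of the 7 genes 6 lay above 0. Among these, Nrg (0.17) and cora (0.41 ± 0.09, SE, limma adjusted p = 0.058) were higher without overlap. The gene sdt was lower without overlap (difference -0.44 ± 0.12, SE, limma adjusted p = 0.103). Hemocyte markers had a median of 0.03 over 10 genes, and 0 passed, with summed signals of 475 to 490 on GFP-positive arrays and 424 to 447 on GFP-negative arrays. The hemocyte genes eater, NimC1, lz and Hml lay below background in both groups, so that median is not firm. Of the 6 above background, srp (0.43), Pxn (0.60) and PPO2 (0.37) were higher without overlap. The gene gcm (-0.17) was lower without overlap. The part of any of these cell types in the differences of numb, par-1 or brat was not tested.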

How the data were processed

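Per the labels, biotinylated cRNA from total RNA of sorted cells was hybridised. Deposited values are on a log2 scale, 1 for each probe set on each array, as the authors made them. The submitters' processing notes name affy without a version or role, and how background was corrected and arrays were scaled is not given in the sources used here. Array medians lay between 3.71 and 3.73, and no further scaling was applied. Any scaling by the authors that made arrays alike would hide a shift common to most genes. The log base was read as 2 because the highest value, 12.9, then stays within a scanner's range.

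Of 14010 probe sets, 44 controls were left out. The platform annotation names 1 gene for 12443 of the rest, several for 327 and none for 1196. Gene spans come from RefSeq (Release 6 assembly). The fit was limma 3.58.1 in R 4.3.3 (lmFit, then eBayes with trend and robust options, 2-sided, Benjamini-Hochberg over 13966 probe sets), tested on simulated data. Members, lists and this fit were chosen with earlier results of these data known; a fit with a single prior variance had called none. Named are all members, pathway genes past the threshold, a few whatever their values, and up to 3 markers a list. Other genes named beside them were chosen after their values were seen. They are scrib, cno, Galphai, loco, stau, neur, AP-2alpha, AP-2sigma, Nak, flfl, nSyb, futsch, brp, fne, Nrg, cora, sdt and the cardiac and hemocyte genes. Deviations of same-numbered arrays correlated weakly (0.079, 0.018 and 0.018). Such values cannot show whether those arrays came from the same sort, and the main fit assumed no pairing. Alternatives were other variance priors, a replicate block, quantile normalization, median centring, array weights, leaving out the dimmest 40%, adding 32 to linear signals as a pseudocount, a span adjustment and leaving out each array. No sequence is printed, since none was used. The number of arrays limits the precision.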

Additional observations from a re-analysis of the deposited data

How the results depend on the processing

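Differences of numb, par-1, par-6, mira and brat kept their sign under every setting run on the brightest probe set; baz, aPKC, insc and pins lay close to 0 and changed sign in some. Of all probe sets, 340 were called as reported, 0 with a single prior variance, 655 without dim probe sets (fewer tested), 142 after the span adjustment (290 over the same genes without it) and 102 to 189 without 1 array. A block on replicate number gave 437 calls, but whether same-numbered arrays were paired is not known from the labels. Of the 9 members, 2 were called as reported (numb and par-1), 3 without dim probe sets (with brat), 2 with the replicate block (numb and brat, not par-1), 2 with median centring and with array weights, 0 with a single prior variance, with the pseudocount and after the span adjustment, 1 without the robust option, with quantile normalization and over genes with a known span (added after seeing the data), and 0 to 1 without 1 array. With the pseudocount par-1 differed by 0.307 and numb by 0.324, both at an adjusted p of 0.052.

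Sign changes were 0.017 for baz with array weights, -0.078 for insc and 0.008 for pins after the span adjustment, and -0.064 for a further probe set of par-1. Without 1 array, differences ranged from -0.116 to 0.061 for baz, -0.151 to 0.079 for aPKC, -0.044 to 0.123 for insc and -0.116 to 0.099 for pins. The cause was not tested. Weak signal limits the dim probe set of mira, whose GFP-positive values lie below the brightest control of their array.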
